A study of Mus musculus with 6 samples.

Results

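The genes described are 6 intracellular fatty acid binding protein genes (Fabp1, Fabp2, Fabp3, Fabp4, Fabp5 and Fabp7), the membrane fatty acid transporter gene Cd36, and the receptor genes Ffar2, Ffar4 and Gpr84. They make up 10 of the 25777 genes and transcripts tested. Their 11 probes were found by the accession each probe carries, and the set itself was chosen from results of the same comparison, so the differences below describe these arrays and are not independent evidence. All 10 genes entered the fit, and all 10 stood well above background on each of the 6 arrays.

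Fatty acid binding proteins are small cytoplasmic proteins that hold a fatty acid or another lipid in an internal cavity and carry it between membranes, lipid droplets, enzymes and the nucleus. CD36 takes long-chain fatty acids and oxidised lipoproteins into fat cells, capillary endothelium and macrophages. The receptors act at the cell surface and turn extracellular fatty acids into signals, FFAR2 for short-chain, GPR84 for medium-chain and FFAR4 for long-chain fatty acids. In obese fat, Fabp4, Fabp5 and Cd36 are known from adipocytes, from endothelium and from macrophages that store lipid.

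The samples came from mesenteric fat, the fat that hangs along the intestine, of male C57BL/6JHamSlc-ob/ob mice. These mice lack functional leptin and become obese, and both groups carry the mutation. The propolis group received an ethanol extract of Brazilian propolis, a resin collected by bees, at 100 mg/kg by intraperitoneal injection 2 times a week for 12 weeks, and the vehicle group received dilute DMSO and ethanol on the same schedule. Stromal vascular cells, the cells that collagenase releases from fat, gave the RNA for 3 arrays per group. The labels do not say how many mice stand behind a sample or how old they were, so p-values measure the spread between these samples.

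Values are log2 fluorescence intensities minus the array's own 75th percentile, so that a probe at 0 is brighter than most. Differences are propolis minus vehicle on that log2 scale, each with its standard error (SE) from limma over 3 arrays per group, and p-values were adjusted over all 25777 genes. That 75th percentile lay between 459.5 and 729 intensity units, and 61.1% to 66.7% of spots per array stood well above background. Propolis 1, propolis 2, vehicle 1 and vehicle 2 shared slide 1 and scan 1, and propolis 3 and vehicle 3 shared slide 2 and scan 2. On single arrays, marker genes of other organs and cells were high, with the highest hepatocyte list mean on propolis 3, intestinal epithelium on vehicle 3 (both given with Fabp1 below), and pancreatic acinar cells and B cells on vehicle 2. Acinar genes averaged 4.90 on vehicle 2 and -3.79 to -2.66 on the other arrays, and B cell genes averaged 1.57 on vehicle 2 and -3.40 to -0.47 on the others. With 3 arrays against 3, an exact permutation test cannot give a p below 0.1.

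Ffar4, the receptor for long-chain fatty acids, was the 1 gene of the 10 with an adjusted p under 0.05. It was 2.78-fold lower after propolis. Over all genes tested, 0.834% passed this threshold, 0.113% as lower and 0.722% as higher after propolis. In Fabp4, Fabp5, Fabp7 and Cd36 all propolis arrays also lay below all vehicle arrays, by 1.53-fold to 2.69-fold, without passing the adjusted test; 6.61% of all genes lay lower without overlap. Fabp1, Fabp2, Fabp3, Ffar2 and Gpr84 had overlapping groups. The plot of the 10 genes by array shows these patterns.

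**Figure D1:**
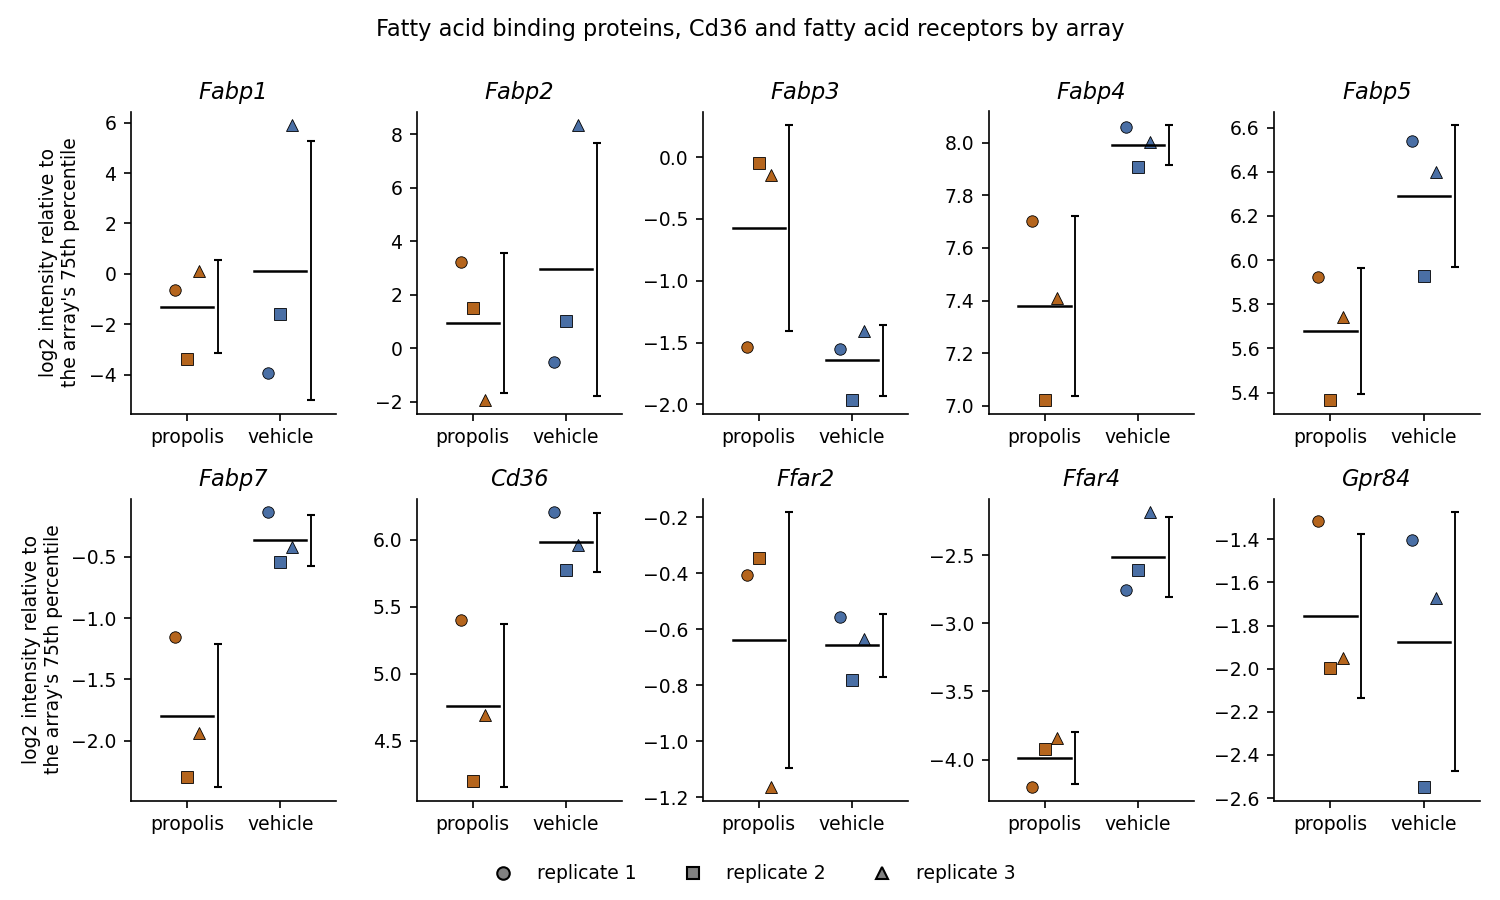
Log2 intensity relative to the array's 75th percentile (vertical axes, one scale per gene) for the 10 genes in propolis and vehicle arrays. Points are arrays, with replicate numbers as shapes, lines are group means and bars are the SD over 3 arrays; Fabp4, Fabp5, Fabp7, Cd36 and Ffar4 have every propolis array below every vehicle array, and Fabp1 and Fabp2 have their highest array in vehicle 3.

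Ffar4 levels were -4.20, -3.92 and -3.84 on propolis arrays 1, 2 and 3, against -2.75, -2.61 and -2.18 on vehicle arrays 1, 2 and 3. The 3 propolis arrays lay close together, and the groups were separated by more than the spread within either. The group means were -3.99 ± 0.19 after propolis and -2.51 ± 0.30 after vehicle (SD, n = 3 each). Ffar4 fell by 1.47 (SE 0.22, limma adjusted p = 0.0488), by 1.38 on slide 1 and by 1.66 on slide 2. The probe was dim, with processed intensities of 39.6, 33.8 and 37.7 on the propolis arrays and 81.9, 75.3 and 137 on the vehicle arrays. It still lay above the dimmest probes scored as well above background, which stood between -5.82 and -5.41 on propolis arrays and between -5.48 and -5.26 on vehicle arrays.

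The Ffar4 call rested on every array. With any 1 array left out, limma gave it adjusted p-values of 0.0797 to 0.192, at differences of -1.59 to -1.31. With slide as a block the adjusted p was 0.0331, and 1.21% of all genes then passed. With normexp background correction, which adds an offset to every signal, the difference was -0.80 (limma adjusted p = 0.132). Fewer cells that carry a transcript and less of it per cell cannot be told apart in RNA from a mixture of cells, for this gene or any other below.

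Ffar4 is known from adipocytes, macrophages and enteroendocrine cells, and markers of these cells were read on the same arrays, those of macrophages standing with Cd36 and Fabp4 below. All 12 adipocyte markers had lower means after propolis, as did 50.4% of all genes tested, and 0 of the 12 passed the adjusted test. Their mean level ran from -1.02 to -0.004 on propolis arrays and from -0.33 to 1.00 on vehicle arrays. The 8 enteroendocrine markers tested averaged -3.31 to -2.53 on propolis arrays and -3.47 to 0.23 on vehicle arrays, with the highest value on vehicle 3. Across the 6 arrays, the genes with a profile most like Ffar4 were Marveld2, a tight junction gene, Lyz1, a lysozyme gene of intestinal Paneth cells, and Dusp9, a phosphatase gene (Pearson r 0.99 each). The part of these cells in the Ffar4 difference was not tested.

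RefSeq promoter windows of the mouse build GRCm38.p6, 250 bases before each gene's start, were available for 8 of the 10 genes. The windows of 4 genes are shown, Ffar4 for its call, Cd36 and Fabp7 for the closest pair of profiles among the 10 genes, and Fabp1 as a gene read with the intestine. Capitals mark matches on either strand to a TATA box, TATAAA, to the core motif AGGTCA that PPAR, RXR and related nuclear receptors bind, whose reverse complement is TGACCT, and to an HNF1 core motif, GTTAAT. The Ffar4 window is chr19:38096829-38097078 on the plus strand, the Cd36 window chr5:17835897-17836146 on the minus strand, the Fabp7 window chr10:57784673-57784922 on the plus strand and the Fabp1 window chr6:71199629-71199878 on the plus strand.
Ffar4: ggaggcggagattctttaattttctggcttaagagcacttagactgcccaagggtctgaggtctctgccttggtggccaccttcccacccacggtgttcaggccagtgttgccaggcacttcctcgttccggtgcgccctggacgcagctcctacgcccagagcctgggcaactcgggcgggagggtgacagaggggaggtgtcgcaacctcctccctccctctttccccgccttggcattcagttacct
Cd36: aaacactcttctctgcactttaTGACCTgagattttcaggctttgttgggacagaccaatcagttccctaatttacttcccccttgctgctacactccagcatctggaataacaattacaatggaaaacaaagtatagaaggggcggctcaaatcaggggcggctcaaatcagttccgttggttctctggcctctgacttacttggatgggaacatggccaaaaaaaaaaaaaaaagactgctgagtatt
Fabp7: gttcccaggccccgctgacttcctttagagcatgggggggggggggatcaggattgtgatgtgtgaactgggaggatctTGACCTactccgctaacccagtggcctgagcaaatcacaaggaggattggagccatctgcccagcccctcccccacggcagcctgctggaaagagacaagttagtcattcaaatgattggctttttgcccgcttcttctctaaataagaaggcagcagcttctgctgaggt
Fabp1: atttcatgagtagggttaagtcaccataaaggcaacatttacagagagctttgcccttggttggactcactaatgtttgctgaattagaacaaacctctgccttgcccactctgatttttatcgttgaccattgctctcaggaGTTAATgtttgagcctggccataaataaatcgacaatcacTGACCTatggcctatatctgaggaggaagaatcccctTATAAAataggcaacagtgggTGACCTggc
The Ffar4 window, 61.2% G and C, held none of the motifs searched. The Cd36 window held 1 AGGTCA motif, 228 bases before the start, and the Fabp7 window held 1, 171 bases before it. The Fabp1 window held a TATA box 30 bases before the start, AGGTCA motifs at 67 and 9 bases and the HNF1 motif further upstream.

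An AGGTCA motif was found in 5 of the 8 genes with a window, Fabp1, Fabp7, Cd36, Ffar2 and Gpr84, and in 14.0% of all 32851 promoter windows. Ffar2 has 4 windows of its own, so it had more chances of a match. The classical PPAR and RXR element, a direct repeat of 2 such motifs with 1 base between them, was in 0 of the 8 and in 0.0335% of all windows. TATAAA was in 12.4% and GTTAAT in 6.43% of all windows. The motif TGANTCA of AP-1 factors was in 1 gene, Ffar2, and in 6.75% of all windows, and the GATA motif AGATAA was in none of the 8 and in 9.99% of all windows. The windows with an AGGTCA motif belonged both to genes whose groups did not overlap, Fabp7 and Cd36, and to genes whose groups did.

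Cd36, the membrane transporter, was bright on every array. It stood at 5.40, 4.20 and 4.69 on propolis arrays 1, 2 and 3, against 6.20, 5.77 and 5.96 on vehicle arrays 1, 2 and 3. The highest propolis array, propolis 1, lay below the lowest vehicle array, vehicle 2. The difference was -1.21 (SE 0.33, 2.32-fold lower, limma adjusted p = 0.210), with -1.19 on slide 1 and -1.27 on slide 2. The 95% interval ran from -2.01 to -0.42, and leaving out single arrays gave adjusted p-values from 0.118 without propolis 1 to 0.575 without vehicle 1.

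Fabp4, the adipocyte fatty acid binding protein also made by macrophages and capillary endothelium, had levels of 7.70, 7.02 and 7.41 on propolis arrays 1, 2 and 3, against 8.06, 7.91 and 8.002 on vehicle arrays 1, 2 and 3. The vehicle arrays differed little from each other, with an SD of 0.08 against 0.34 over the propolis arrays, and the groups did not overlap. Its difference was -0.61 (SE 0.22, 1.53-fold lower, limma adjusted p = 0.347), with -0.62 on slide 1 and -0.59 on slide 2.

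Fabp5, the epidermal type binding protein of macrophages and endothelium, stood at 5.93, 5.37 and 5.74 on propolis arrays 1, 2 and 3, against 6.54, 5.93 and 6.40 on vehicle arrays 1, 2 and 3. Propolis 1 and vehicle 2 were equal to the second decimal, with propolis 1 the lower by a margin far under the spread within groups. The difference was -0.61 (SE 0.25, 1.53-fold lower, limma adjusted p = 0.412), -0.59 on slide 1 and -0.66 on slide 2. The reference table lists a Fabp5-like pseudogene, Fabp5l2, and whether the probe also reads it was not tested.

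Fabp7, the brain type binding protein known from glia, stood at -1.16, -2.29 and -1.93 on propolis arrays 1, 2 and 3, against -0.14, -0.54 and -0.42 on vehicle arrays 1, 2 and 3. The gap between the groups was wider than the spread among vehicle arrays but narrower than the spread among propolis arrays. The difference was -1.43 (SE 0.32, 2.69-fold lower, limma adjusted p = 0.135), -1.38 on slide 1 and -1.51 on slide 2. Its lowest adjusted p with 1 array left out was 0.0773, without propolis 1. Of 8 glial markers, 4 entered the fit, and their mean level was -2.43 to -2.13 on propolis arrays and -2.14 to -1.75 on vehicle arrays.

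The order of arrays was identical in Fabp4, Fabp5, Fabp7 and Cd36. Within propolis it ran from array 1 through array 3 to array 2, high to low, and within vehicle it was again array 1, array 3 and array 2. The profiles of Cd36 and Fabp7 had a Pearson r of 0.99 over the 6 arrays, as had Cd36 and Fabp4, while Fabp4 and Fabp5 had 0.93. These points share the group difference and the libraries, so the values describe the arrays only. Ffar4 had another order, with vehicle 3 highest and propolis 1 lowest, and an r of 0.75 with Cd36. In the plot of centred profiles, the adipocyte, endothelial, lipid-associated macrophage and pan-macrophage lists are drawn beside the 5 genes.

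**Figure D2:**
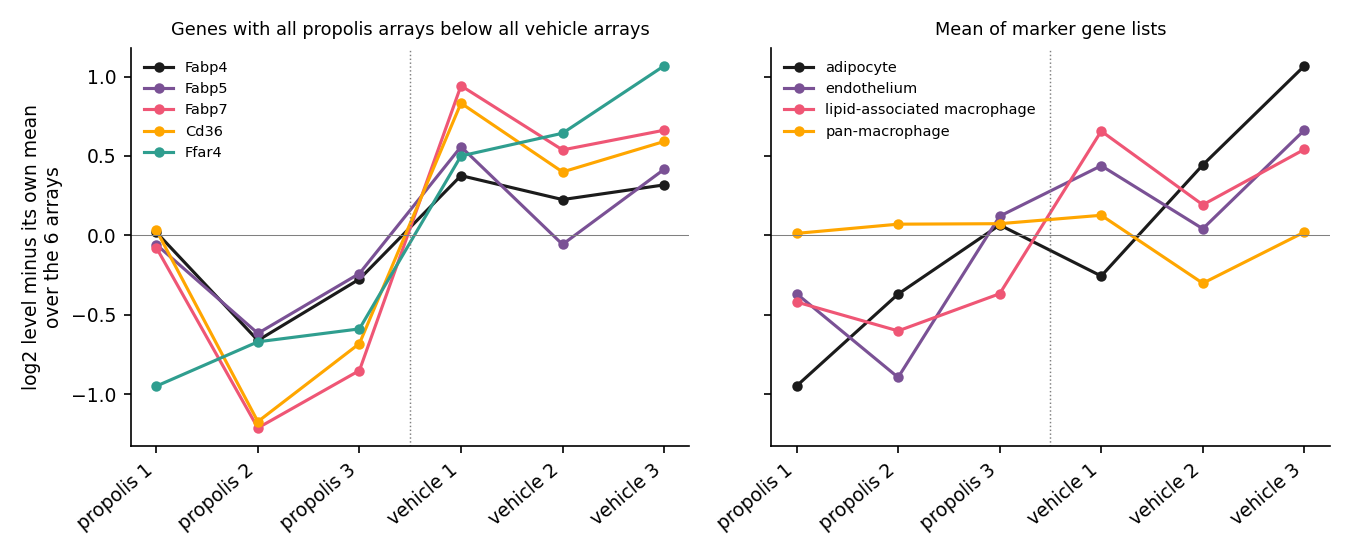
Log2 level minus its own mean over the 6 arrays (vertical axis) by array. The left panel shows the 5 genes whose propolis arrays all lie below the vehicle arrays, and the right panel shows the means of 4 marker gene lists. None of the 4 lists has the order of arrays of Cd36, Fabp4, Fabp5 and Fabp7 in both groups. The adipocyte and endothelial lists are highest on array 3 in both groups. The lipid-associated macrophage and pan-macrophage lists share the order of Cd36, Fabp4, Fabp5 and Fabp7 within vehicle, but within propolis they are highest on propolis 3. The pan-macrophage list stays within 3.29 to 3.72 in level.

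Endothelium, lipid-laden macrophages and adipocytes, cell types known to make Fabp4, Fabp5 and Cd36, had markers with lower means after propolis. All 14 endothelial markers had lower means, with a median difference of -0.81, and 0 passed the adjusted test. Their mean level was 1.83 to 2.85 on propolis arrays and 2.77 to 3.39 on vehicle arrays. Of 12 lipid-associated macrophage markers, genes of macrophages that take up lipid in obese fat, 11 had lower means and 3 fell, Mmp12, Itgax and Lgals3 (limma adjusted p = 0.0307, 0.0405 and 0.0405). With 1 array left out, Itgax and Lgals3 passed in 0 of 6 fits, and Mmp12 in 1, the fit without propolis 3. The marker with a higher mean was Spp1, the osteopontin gene, at a difference of 1.56 without overlap (SE 0.50, limma adjusted p = 0.288). This list had a mean level of 3.86 to 4.09 on propolis arrays and 4.65 to 5.12 on vehicle arrays, with a median difference of -0.91. The adipocyte list had a median difference of -0.72. Pan-macrophage markers were at 3.60 to 3.66 on propolis arrays and 3.29 to 3.72 on vehicle arrays, with 4 of 9 means lower. The part of these cells in the differences of Fabp4, Fabp5, Fabp7 and Cd36 was not tested.

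Genes with the closest profiles were named by Pearson r over the 6 arrays among 15771 genes with a symbol. For Fabp4 they were Gclc, the catalytic subunit gene of glutathione synthesis, Cd36 and Rgs1, a G protein regulator gene of leukocytes. For Fabp5 they were Arap3, Asph and Mcf2l, and for Fabp7 they were Cd36, Fam241a and Cd44, the hyaluronan receptor gene. For Cd36 they were Fabp7, Fabp4 and Fam241a. Between 24 and 39 genes had an r over 0.95 with each of these 4 genes, and 64 with Ffar4.

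Fabp1 and Fabp2, the liver type and intestinal type binding proteins of the gut lining, followed single arrays. Fabp1 stood at -0.64, -3.37 and 0.11 on propolis arrays 1, 2 and 3, against -3.92, -1.60 and 5.90 on vehicle arrays 1, 2 and 3. Fabp2 stood at 3.21, 1.51 and -1.93 on propolis arrays 1, 2 and 3, against -0.53, 1.03 and 8.33 on vehicle arrays 1, 2 and 3. Vehicle 3 was the highest array for both, and the other 5 arrays of the 2 groups were mixed.

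The fitted differences of both had wide errors. For Fabp1 it was -1.43 (SE 2.50, limma adjusted p = 0.878), with 0.75 on slide 1 and -5.78 on slide 2. For Fabp2 it was -2.01 (SE 2.48, limma adjusted p = 0.819), with 2.11 on slide 1 and -10.26 on slide 2. The sign thus differed between slides, and without vehicle 3 the differences were 1.46 for Fabp1 and 0.68 for Fabp2.

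All 16 intestinal epithelium markers that entered the fit were highest on vehicle 3 among the vehicle arrays and had lower means after propolis. Their mean level was -0.72, -2.09 and -4.30 on propolis arrays 1, 2 and 3, against -3.06, -3.05 and 4.21 on vehicle arrays 1, 2 and 3. Fabp2 had the same lowest array among the propolis arrays as this list, propolis 3. Fabp6, the ileal bile acid binding protein, stood at 1.62, 2.79 and -7.39 on propolis arrays 1, 2 and 3, against 0.92, -1.96 and 8.24 on vehicle arrays 1, 2 and 3, and was not well above background on propolis 3.

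Fabp1 was higher on propolis 3 than on the other propolis arrays, unlike the intestinal list. Hepatocytes also make it, and a list of 9 hepatocyte genes, added after these values were seen, had a mean level of -3.02, -3.31 and -0.17 on propolis arrays 1, 2 and 3, against -4.08, -4.77 and -4.15 on vehicle arrays 1, 2 and 3. The albumin gene Alb stood at 1.42 on propolis 3 and between -4.10 and -2.27 on the other arrays. In the list 1 gene rose, Gc, the vitamin D binding protein gene (limma adjusted p = 0.0246). With 1 array left out, Gc passed in only 1 of 6 fits (limma adjusted p = 0.0445 to 0.118). Gc, Fgb and Fgg lay higher on each of the 3 propolis arrays than on any vehicle array, as did Alb, so 4 of the 9 genes were higher without overlap, and the other 5 overlapped. Over all genes tested, 10.8% were higher without overlap. Fgb and Fgg were well above background on 0 of 3 vehicle arrays. The closest profiles to Fabp1 were those of Rdh7, Ugt2b34 and Aadac, enzyme genes of liver and gut, and to Fabp2 those of Mgat4a, Sis and Sult1b1, of which Sis encodes the sucrase of the brush border. The part of neighbouring organs in these levels was not tested.

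**Figure D3:**
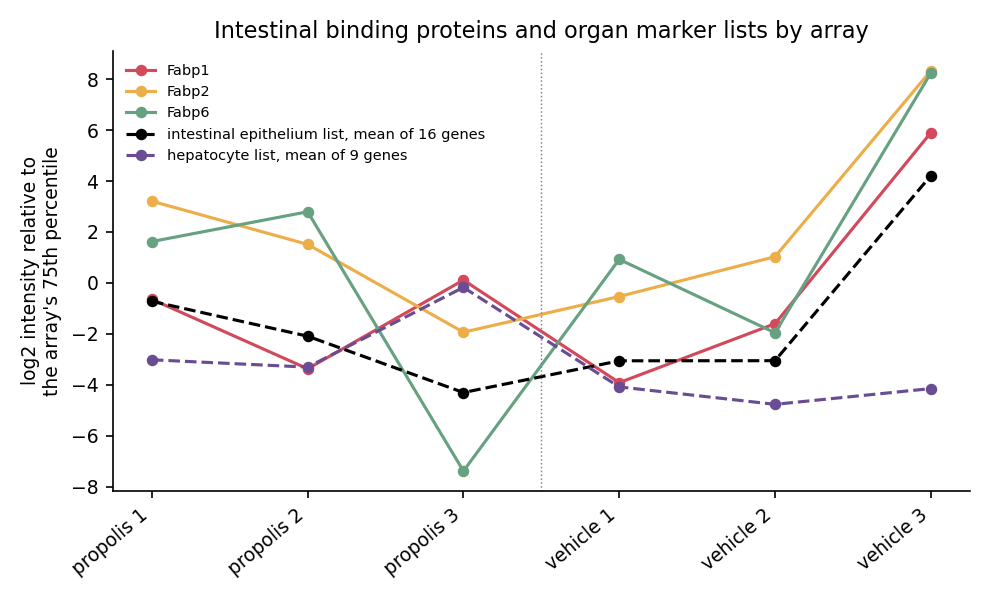
Log2 intensity relative to the array's 75th percentile (vertical axis) on the 6 arrays for Fabp1, Fabp2 and Fabp6 and for the means of the intestinal epithelium and hepatocyte lists. Each line is read against itself; Fabp1, Fabp2, Fabp6 and the intestinal list peak on vehicle 3, and the hepatocyte list peaks on propolis 3.

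Fabp3, the heart and muscle type binding protein, was the 1 gene of the 10 that was higher after propolis at an unadjusted limma p under 0.05. It stood at -1.54, -0.05 and -0.14 on propolis arrays 1, 2 and 3, against -1.55, -1.96 and -1.41 on vehicle arrays 1, 2 and 3. Propolis 2 and propolis 3 lay above all vehicle arrays and propolis 1 among them, so the groups overlapped. The difference was 1.07 (SE 0.43, limma adjusted p = 0.413), 0.96 on slide 1 and 1.27 on slide 2. A second probe gave a difference of 1.16, and on it the lowest propolis array, propolis 1 at -1.87, lay just above the highest vehicle array, vehicle 1 at -1.92, so the probes disagree on overlap. The genes with the closest profiles were Eln, the elastin gene, BC037032 and Obsl1. Whether either probe reads the pseudogene Fabp3-ps1 was not tested.

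Ffar2, the receptor for acetate and other short-chain fatty acids, stood at -0.41, -0.34 and -1.16 on propolis arrays 1, 2 and 3, against -0.56, -0.78 and -0.63 on vehicle arrays 1, 2 and 3. Propolis 3 was the lowest of all arrays and the other propolis arrays the highest. The difference was 0.02 (SE 0.26, 95% interval -0.61 to 0.65, limma adjusted p = 0.985), with 0.29 on slide 1 and -0.53 on slide 2. Its closest profiles were those of Dera, Cox7c and Ndufb5, and both Cox7c and Ndufb5 encode respiratory chain subunits.

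Gpr84, a receptor of myeloid cells for medium-chain fatty acids, stood at -1.32, -2.00 and -1.95 on propolis arrays 1, 2 and 3, against -1.40, -2.55 and -1.67 on vehicle arrays 1, 2 and 3. Array 1 was the highest in each group, and the groups overlapped. The difference was 0.12 (SE 0.36, 95% interval -0.74 to 0.98, limma adjusted p = 0.932), with 0.32 on slide 1 and -0.28 on slide 2. The gene most like it over the arrays was Hcar2, the niacin and hydroxybutyrate receptor gene (r 0.99), and only 5 genes had an r over 0.95. For Ffar2 and Gpr84 the intervals leave room for differences in either direction.

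Over the 10 genes, 7 had lower means after propolis and the median difference was -0.91, beside a median of -0.004 and 50.4% lower means over all genes tested. At an unadjusted limma p under 0.05 there were 5 lower and 1 higher, where 4.48% of all genes were lower and 7.24% higher. Groups did not overlap in 5 genes, all lower, and in 0 as higher, where 6.61% of all genes were lower and 10.8% higher without overlap. Since the set was chosen from this comparison, these shares describe it and nothing is read from them. With array weights, which ran from 0.292 for propolis 3 to 8.26 for vehicle 1, limma called 6 of the 10, Fabp3 as higher and Fabp4, Fabp5, Fabp7, Cd36 and Ffar4 as lower, and 12.5% of all genes. The plot of differences by slide gives each value.

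**Figure D4:**
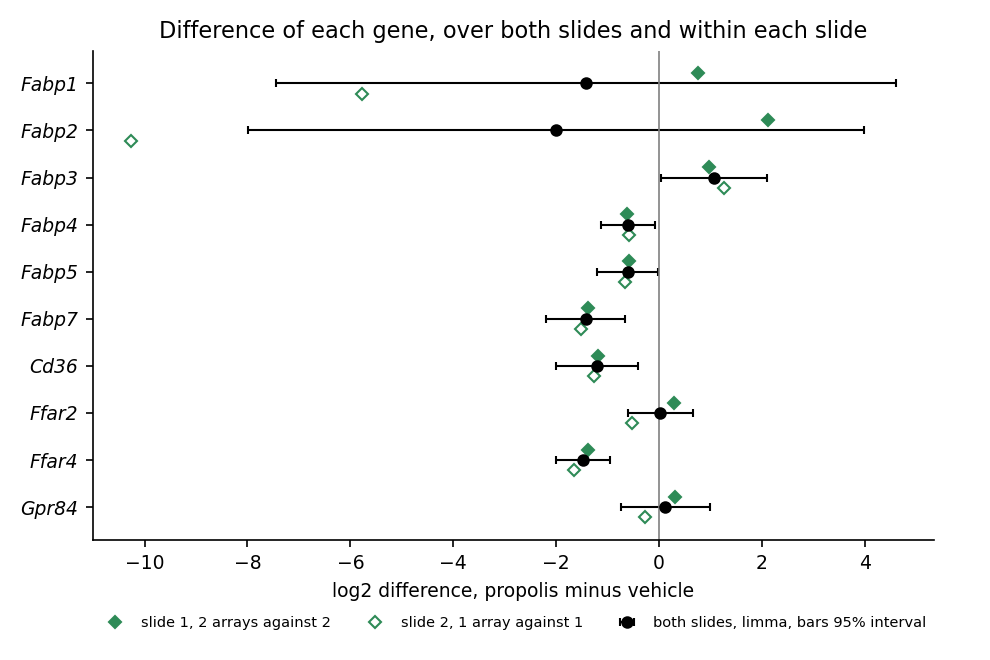
Log2 difference, propolis minus vehicle (horizontal axis), of the 10 genes over both slides with its 95% limma interval, and within slide 1 (2 arrays against 2) and slide 2 (1 array against 1). Fabp1 and Fabp2 lie on opposite sides of 0 on the 2 slides, as do Ffar2 and Gpr84. Fabp3 lies above 0 on both slides, and Fabp4, Fabp5, Fabp7, Cd36 and Ffar4 lie below 0 on both.

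Other intracellular lipid binding proteins are relatives that carry retinoids, bile acids or fatty acids. Of 10 listed, 6 entered the fit and 0 passed the adjusted test. Crabp2, which carries retinoic acid to the nucleus, stood at 2.97, 2.92 and 1.64 on propolis arrays 1, 2 and 3, against 0.32, 0.12 and -0.23 on vehicle arrays 1, 2 and 3. The groups were far apart, at a difference of 2.44 (SE 0.40, limma adjusted p = 0.0616), and with slide as a block the adjusted p was 0.0237. It passed in 5 of 20 alternatives.

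Rbp7, a retinol binding protein of fat endothelium, differed by -0.60 (SE 0.58) with overlap. Fabp4, Fabp5, Fabp9 and Fabp12 lie close together on chromosome 3. Fabp9, known from testis, differed by -1.58 (SE 0.68, limma adjusted p = 0.447) and was well above background on 1 of 3 propolis arrays and 2 of 3 vehicle arrays, and Fabp12 differed by -0.14 (SE 0.32). Neither passed the test, both had overlapping groups, and with normexp the difference of Fabp9 was -0.47.

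Of 5 other receptors for fatty acids and related metabolites, 3 entered the fit and 0 passed, with 0 at an unadjusted limma p under 0.05. Ffar3, which shares short-chain ligands with Ffar2, differed by -0.08 (SE 0.24), Hcar1, the lactate receptor gene, by -0.61 (SE 0.50) and Hcar2 by 0.04 (SE 0.36). The Hcar1 value was -0.15 with normexp and -0.0852 without propolis 2. The long-chain receptor gene Ffar1 and Gpr119 did not enter the fit.

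Of 17 genes of fatty acid uptake and activation, all entered the fit and 0 passed the adjusted test. Their median difference was -0.13, and 11 had lower means. At an unadjusted limma p under 0.05, 1 was lower and 3 higher. Slc27a1, a fatty acid transport protein gene, differed by -0.60 (SE 0.23, limma adjusted p = 0.385), and its relative Slc27a3 by 0.73 (SE 0.19, limma adjusted p = 0.185). Acsl4, the acyl-CoA synthetase with a preference for arachidonic acid, differed by 0.84 (SE 0.32, limma adjusted p = 0.385). Acsl6 differed by 1.52 (SE 0.31, limma adjusted p = 0.104), but by 0.25 with normexp background correction, and was well above background on 1 of 3 vehicle arrays.

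Nuclear receptors that bind lipids and act on Fabp and Cd36 genes were also measured. Of 10 listed, 9 entered the fit and 0 passed, and 1, Pparg, had an unadjusted limma p under 0.05. Pparg, the PPAR of fat cells and lipid-laden macrophages, stood at 2.04, 1.67 and 2.29 on propolis arrays 1, 2 and 3, against 2.84, 2.31 and 2.97 on vehicle arrays 1, 2 and 3. The groups did not overlap, at a difference of -0.71 (SE 0.26, limma adjusted p = 0.362). Nr1h3, which encodes liver X receptor alpha, differed by -0.56 (SE 0.24, limma adjusted p = 0.442), also without overlap. Its highest propolis array, propolis 1 at 2.941, lay just below its lowest vehicle array, vehicle 2 at 2.947. Of all genes tested, 6.61% lay lower without overlap. Rxra differed by -0.22 (SE 0.23), or -0.0364 without propolis 1. Hnf4a, a factor of gut and liver epithelium, differed by -1.64 (SE 1.85) and was highest on vehicle 3, as Fabp1 and Fabp2 were.

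**Figure D5:**
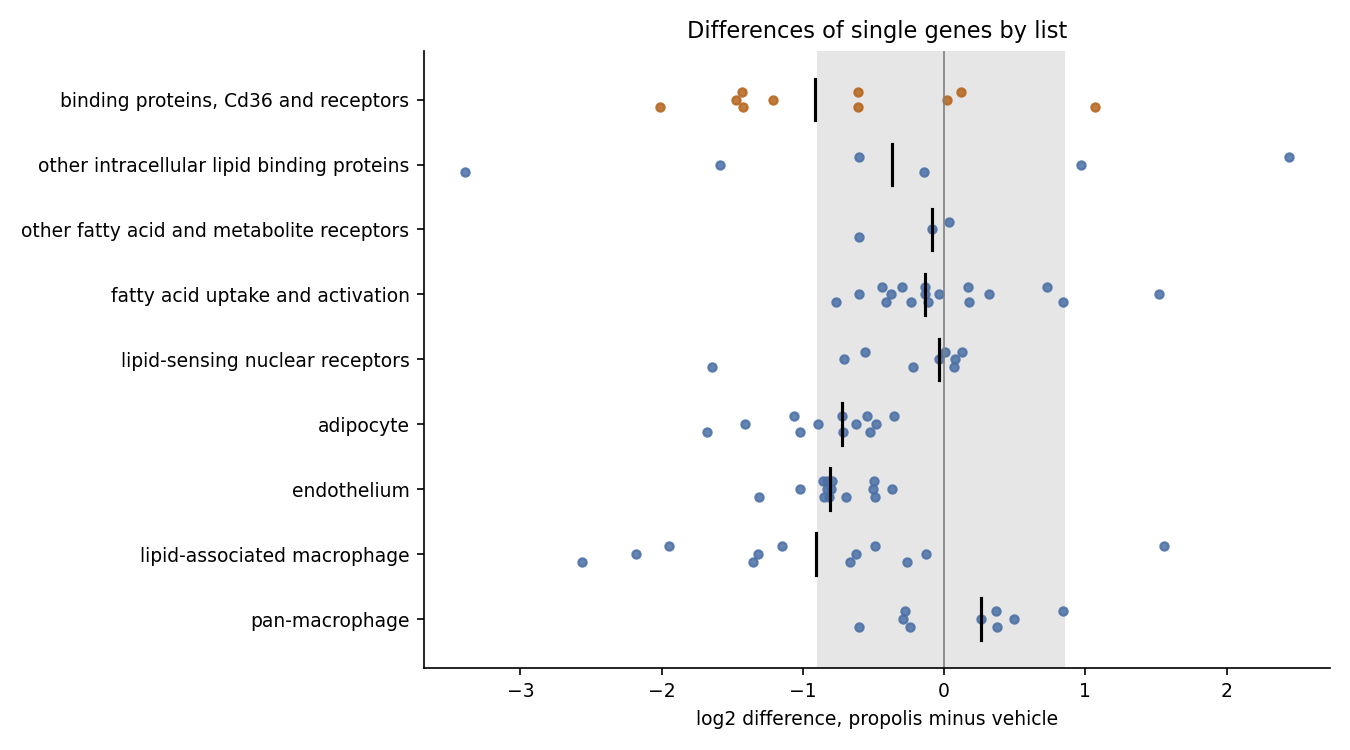
Log2 difference, propolis minus vehicle (horizontal axis), of single genes in the set (top row) and in 8 other lists. Each point is a gene, black ticks are medians and the grey band holds the 5th to 95th percentile of all genes tested, -0.89 to 0.85; the ticks of the set, the adipocyte, the endothelial and the lipid-associated macrophage lists lie between -0.91 and -0.72.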

How the data were processed

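RNA was labelled with Cy3 and read on 1-colour Agilent arrays with Feature Extraction 10.7.3.1, per the submitters' processing notes. The deposited scanner tables hold the processed signal, a background-corrected intensity on a linear scale, per the file headers. The deposited series table holds log2 values near each array's 75th percentile and was used only as an alternative. Its array medians ran from -3.97 to -3.62, and it differed from the log2 scanner signal by one offset per array.

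Non-uniform spots were dropped, the remaining intensities were put on a log2 scale, replicate spots were combined by their mean, and the 75th percentile over an array's probes was taken off. A probe entered if it was well above background on at least 3 of 6 arrays, and a gene was read from its brightest such probe. Symbols came from RefSeq accessions in a table of GRCm38.p6, used for names, and 28446 of 55681 probes had none. The array design used mm9.

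The test was limma 3.58.1 (R 4.3.3) with lmFit and eBayes and no block. Benjamini-Hochberg adjustment covered the whole table of 25777 genes, at a threshold of 0.05. The fit was also run on simulated data with independent noise, as a check of the estimated differences only. That noise held no slide effect and no organ genes raised on single arrays, so the run does not show how the test behaves with these. The genes and lists were chosen with earlier results of these data known. Named genes are the 10 genes, up to 4 genes of lowest p and all that passed in each other list, and the 3 closest profiles of each gene by Pearson r. Of the genes this selects, 1 is not reported here. Hepatocyte genes were added after the values were seen. Normexp with an offset of 50 used median signals, since the tables hold no mean signal. Other alternatives changed scaling, filter, flags, probe rule, variance model, array weights, blocks for slide and replicate number, and the arrays included. Same-numbered samples of the groups deviated from their group means with correlations of 0.04, 0.29 and 0.14 over genes. Differently numbered samples had correlations of -0.31 to 0.21. These values do not settle whether the numbers pair samples. The labels name no pairs, so the main fit used none. Promoter windows came from RefSeq (GRCm38.p6). No spot was saturated.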

Additional observations from a re-analysis of the deposited data

How the results depend on the processing

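Over 20 alternatives, Cd36, Fabp7, Fabp4 and Fabp5 kept lower values and Fabp3 higher values, and each passed the adjusted test only with array weights. Ffar4 kept its direction and passed in 7 of the 20, and 0 of the 10 genes passed with normexp, median scaling, no filter, the trended and robust variance model, the replicate block, slide 1 alone, without vehicle 2 and vehicle 3, and with each single array left out, while array weights called 6. Over all genes limma called 215, against 106 with no filter, 3226 with array weights, 73 with the replicate block, 0 on slide 1 alone (5854 at an unadjusted p under 0.05), 0 without vehicle 2 and vehicle 3 (1362 at an unadjusted p under 0.05, 1 vehicle array assumed to vary as the propolis arrays do) and 11 to 94 with 1 array left out. Under the replicate block Ffar4 had a limma adjusted p of 0.0701. Propolis 1 deviated most like vehicle 3 (correlation 0.10, against 0.04 with vehicle 1). Propolis 2 deviated most like vehicle 2 (0.29) and propolis 3 most like vehicle 3 (0.14). Median scaling moved the median of all genes to 0.15, and Ffar4, at -1.31, then had an adjusted p of 0.0512. Signs turned for genes that did not pass. With array weights Fabp1 was 0.70, Fabp2 1.49, Gpr84 -0.33, Hcar2 -0.48 and Hnf4a 0.11. On slide 1 alone Fabp1 was 0.75, Fabp2 2.11 and Hnf4a 1.18. Without vehicle 2 and vehicle 3 Fabp1 was 2.61, Fabp2 1.46, Ffar2 -0.0803, Gpr84 -0.35, Hcar2 -0.45 and Hnf4a 0.45. Ffar3 was 0.0027 with quantile normalization and 0.0751 with median scaling. With 1 array left out, differences ran from -3.45 to 1.46 for Fabp1, -3.75 to 0.68 for Fabp2, -0.13 to 0.28 for Ffar2, -0.22 to 0.36 for Gpr84, -0.31 to 0.0333 for Ffar3, -0.28 to 0.28 for Hcar2, -1.09 to 0.0198 for Rbp7, -2.72 to 0.49 for Hnf4a, -0.97 to -0.0852 for Hcar1 and -0.41 to -0.0364 for Rxra. The causes were not tested, and 3 arrays per group limit the precision of all values.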
